A study of Mus musculus with 3 samples.

Results

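The genes described here encode the Golgi glycosyltransferases that build and cap the sugar chains of mucins, together with their close relatives. They were chosen by symbol: every gene named Galnt, B3gnt, B3galt, B4galt, Gcnt, St3gal, St6gal, St6galnac or Fut with a number, and C1galt1 with its chaperone C1galt1c1. Of the 23183 genes listed in each library, 66 had such a symbol, and the 51 with at least 1 FPKM in any library were kept. FPKM counts sequenced fragments per kilobase of transcript and per 1000000 mapped, so that levels of different genes can be set side by side. The lowest kept gene was Galnt5, at most 1.35 FPKM, and the highest gene left out was Galnt9, at most 0.947 FPKM. Of the 51, 8 passed this floor through 1 or 2 libraries only, and a gene that did so had to differ between libraries.

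The RNA was from homogenised lungs of female mice of the BALB/c strain, with 1 library in each of 3 groups. The control group is labelled only as control, and no vehicle is named for it. The PM10 group received particulate matter, the reference dust ERMCZ-120, in saline into the nose 4 times over 2 weeks. The OVA+PM10 group received the same particles and was also sensitised to ovalbumin (OVA, the egg-white protein) in aluminium hydroxide by injection into the abdomen, then given OVA into the nose on days 21, 22 and 23, which models allergic asthma. There were 5 mice in each group per the labels, which give an age of 10 weeks in one place and of 5 to 6 weeks in another, and particle doses of 100 or 200 µg without saying which was sequenced. The sources used here do not say whether a library held 1 lung or a pool. Mice given OVA alone were not analysed here, so the parts played by the allergen and by the particles in the OVA+PM10 library cannot be told apart.

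Mucin-type glycans start in the Golgi when a polypeptide GalNAc-transferase attaches N-acetylgalactosamine (GalNAc) to a serine or threonine of the mucin. Other enzymes then add galactose to form core 1, or branch the chain into core 2 and core 4, lengthen it with N-acetylglucosamine (GlcNAc) and galactose, and end it with sialic acid or fucose. In airways these chains make up most of the mass of mucin molecules, bind water, and decide which microbes and lectins can hold on to it. The families also hold enzymes with other substrates, such as Fut8 for the core of N-glycans, B4galt7 and B3galt6 for the linker of proteoglycans, and St3gal5, B3galt4 and B4galt6 for glycolipids, so the list is wider than its name.

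Because each group had a single library, no difference had a replicate check, no test could be made, and the ratios compare single libraries. Ratios are given as the log2 ratio of FPKM + 1, which understates differences of low genes, and a gene is called higher or lower where that ratio reaches 1 in size (2-fold) and the higher of the values is 1 FPKM or more. From the steps between low values, 1 read on a transcript of 1 kilobase was worth about 0.0483 FPKM in control, 0.077 FPKM in PM10 and 0.0658 FPKM in OVA+PM10, so the control library was the deepest. A listed 0 need not mean absence: Tgoln2, which most cells use, was listed at 0 in PM10 lung and at 24.6 and 22.0 FPKM in the others. All 8 alveolar type 2 markers were at 1 FPKM or more in each library, as the lung label requires. The control library also held 10 of 10 squamous epithelium markers and 10 of 10 skeletal muscle markers at 1 FPKM or more, summing to 5672 and 4054 FPKM, against 0.523 and 7.11 FPKM in PM10 lung and 1.71 and 23.6 FPKM in OVA+PM10 lung. How much these other tissues gave to the control values below was not tested. In tissue RNA, fewer cells of a type and less RNA per cell cannot be told apart.

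On the deposited scale the 66 matched genes summed to nearly the same FPKM in each library, and a few members differed. The sum was 509 FPKM in control lung, 496 FPKM in PM10 lung and 523 FPKM in OVA+PM10 lung. The libraries themselves summed to 546315, 1293180 and 855739 FPKM, so the matched genes held 0.0931%, 0.0384% and 0.0612% of the total. The PM10 library also stood apart in Rn45s, a ribosomal RNA precursor, at 8570 FPKM against listed values of 0 in the others. In the PM10 library against control, 48 members had at least 1 FPKM in either, of which 1 was called higher (B3galt4) and 4 lower (C1galt1, Fut2, Galnt15 and St3gal1). The shares of all 13693 genes tested that were called higher and lower in that comparison were 13.6% and 13.9%. The members' shares were lower, at 2.08% and 8.33%, but rest on 1 and 4 genes. In the OVA+PM10 library against control, 4 of 50 members were called higher (B3galt4, Galnt12, Gcnt3 and St3gal4) and 2 lower (Galnt15 and St6galnac3). These are 8% and 4% of the members, beside 9.95% and 8.68% of all genes. The higher count was thus near the background, and the lower share rests on 2 genes. In the OVA+PM10 library against the PM10 library, 8 of 51 were called higher (B3gnt3, B4galt5, C1galt1, Fut2, Galnt5, Galnt12, Galnt15 and Gcnt3) and 1 lower (B4galt4), beside 11.8% and 9.0% of all genes, so that the higher count (15.7% of the members) was near the background and the lower count (1.96%) below it. With a floor of 5 FPKM in the higher library, 3 of 29 members and 1013 of 9597 genes were called higher. Each library enters 2 of these 3 comparisons, so their counts are not independent.

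The members' median log2 ratios were -0.05, -0.02 and 0.04 in these comparisons, next to 0.02, -0.0017 and -0.03 for all genes tested. When every library was scaled to an equal sum of FPKM, this moved the median of all genes by -1.05, -0.58 and 0.52. The calls among the 49, 53 and 52 matched genes tested became 0 higher and 28 lower, 2 higher and 11 lower, and 18 higher and 0 lower. Among all genes tested, calls became 262 higher and 7392 lower of 14271, 652 and 3560 of 14525, and 3354 and 341 of 13581. The deposited scale, on which the median gene hardly moved, is used below. With 5 FPKM added in place of 1, the calls left were C1galt1, Galnt15 and St3gal1 in the first comparison, Galnt12 and St3gal4 in the second and C1galt1 and Galnt12 in the last. In all, 13 of the 51 members were called in some comparison, and the other 38 had log2 ratios between -0.95 and 0.99 throughout.

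**Figure D1:**
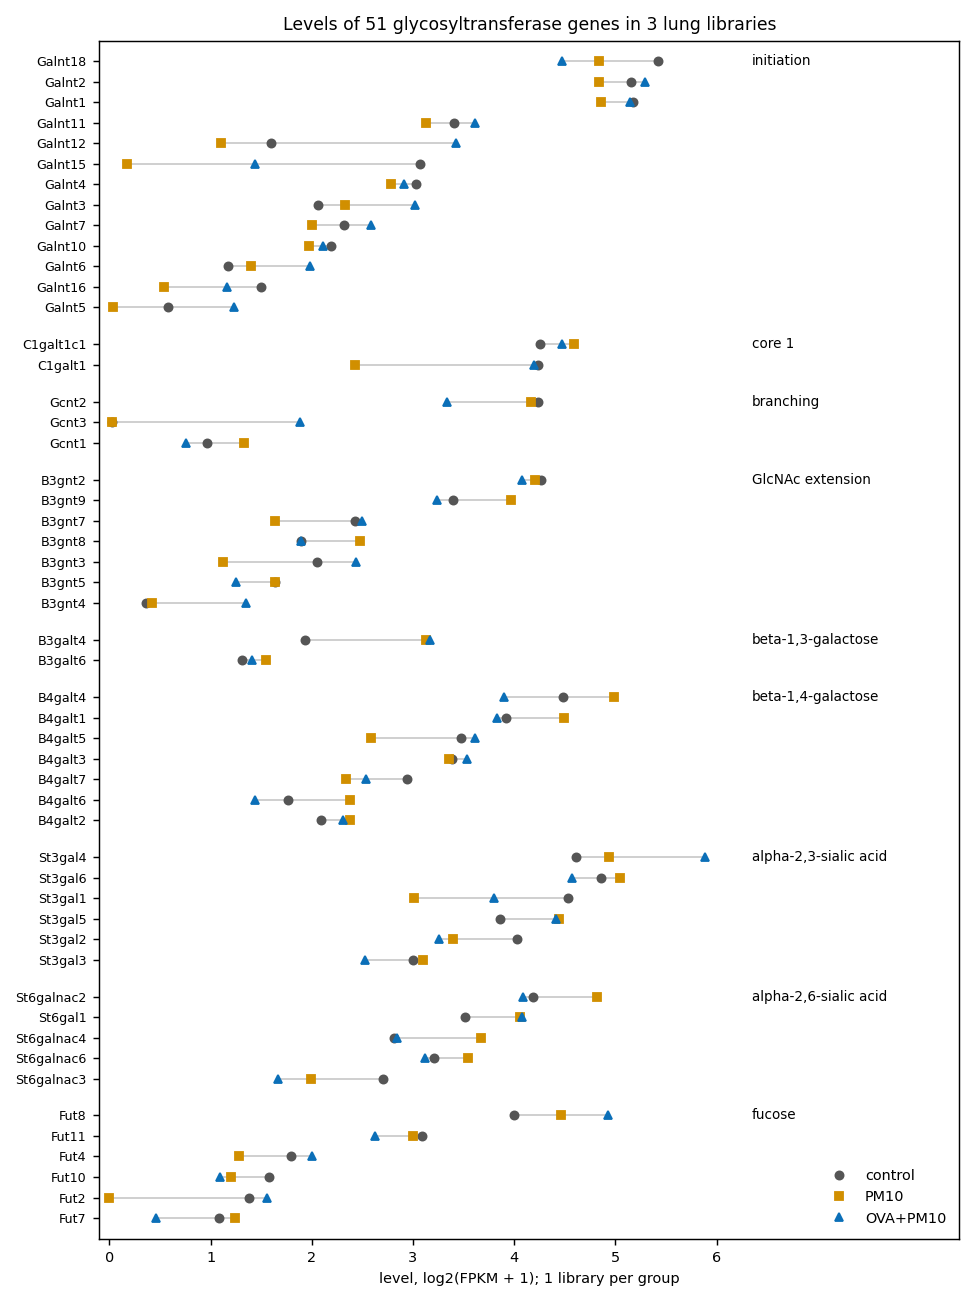
Level of each of the 51 kept genes as log2(FPKM + 1) on the horizontal axis, 1 marker per library (circle control, square PM10, triangle OVA+PM10), grouped by the reaction. Most genes show 3 markers close together, while Galnt12 and Gcnt3 have the OVA+PM10 marker far to the right and Galnt15, C1galt1 and Fut2 have the PM10 marker far to the left.

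Of the 16 GalNAc-transferase genes matched, 13 were kept, and 3 of them stood highest in level. Galnt18 stood at 42.0 FPKM in control lung, 27.6 FPKM in PM10 lung and 21.3 FPKM in OVA+PM10 lung. Galnt1, one of the widely expressed initiating enzymes, stood at 35.1, 28.0 and 34.3 FPKM in the same order. Galnt2, another such enzyme, stood at 34.5, 27.6 and 38.3 FPKM. These 3 genes held most of the family's summed FPKM in every library. The share of Galnt18 was 27.5% in control lung, 24.8% in PM10 lung and 14.7% in OVA+PM10 lung, while that of Galnt2 was 22.6%, 24.8% and 26.4%. The level of Galnt18 in OVA+PM10 lung lay just within 2-fold of control (log2 ratio -0.95).

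Galnt12 (chromosome 4, 47091909 to 47123070, mm10), a GalNAc-transferase of digestive epithelia, was the initiating enzyme with the highest ratio in OVA+PM10 lung. It stood at 2.02 FPKM in control lung, 1.15 FPKM in PM10 lung and 9.77 FPKM in OVA+PM10 lung, which rest on about 96, 34 and 340 reads. The OVA+PM10 library was thus high and the others low, with log2 ratios of 1.83 against control and 2.32 against PM10. Of all genes tested, 2.05% had a ratio as high against control and 1.23% against PM10. Its share of the initiating family was 1.32%, 1.04% and 6.73%.

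Galnt15 (chromosome 14, 32028989 to 32062197) went the other way. It had 7.38 FPKM in control lung, 0.127 FPKM in PM10 lung and 1.71 FPKM in OVA+PM10 lung, from about 966, 10 and 164 reads. The control library was the high one, with log2 ratios of -2.89 for PM10 and -1.63 for OVA+PM10 against it, and the OVA+PM10 library lay above the PM10 library (1.26). The squamous epithelium and skeletal muscle markers were also highest in control lung, and their part in this result was not tested. Of 8 fibroblast markers, 5 were called lower and 1 higher in PM10 than in control (median log2 ratio -1.54). In OVA+PM10 against PM10, 6 were called higher and 1 lower (median 1.56). In OVA+PM10 against control, 2 were called higher and 3 lower (median -0.29). Dcn had the order of Galnt15, at 246, 8.398 and 91.8 FPKM. By contrast, Col1a1 (52.5, 13.1 and 135 FPKM) was highest in OVA+PM10 lung and Mfap4 (292, 786 and 357 FPKM) in PM10 lung. The part of fibroblasts was not tested either.

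Galnt5 had 0.496 FPKM in control lung, 0.022 FPKM in PM10 lung and 1.35 FPKM in OVA+PM10 lung. These values rest on about 43, 1 and 87 reads, and the call against the PM10 library (log2 ratio 1.20) therefore sets a value near that of 1 read against a low one. Galnt5 also passed the floor through OVA+PM10 lung only, which fixed that library as its highest. Galnt3, which glycosylates secreted proteins in many epithelia, had 3.17, 4.03 and 7.13 FPKM, 2.25-fold apart in FPKM for OVA+PM10 against control and not called on the FPKM + 1 scale (0.96). Galnt6, the closest relative of Galnt3, had 1.26, 1.65 and 2.96 FPKM (0.81). With 0.25 FPKM added, Galnt3, Galnt5, Galnt6 and B3gnt4 were also called higher in OVA+PM10 lung than in control. The other kept members, Galnt4, Galnt7, Galnt10, Galnt11 and Galnt16, had log2 ratios between -0.95 and 0.61 in the 3 comparisons. Galnt9, Galnt13 and Galnt14 stayed below 1 FPKM in every library. Against control, 1 of 12 initiating genes was called lower in PM10 lung, beside 13.9% of all genes. In OVA+PM10 lung 1 of 13 was called higher and 1 lower, beside 9.95% and 8.68% of all genes. Counts this small say nothing particular about the family.

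**Figure D2:**
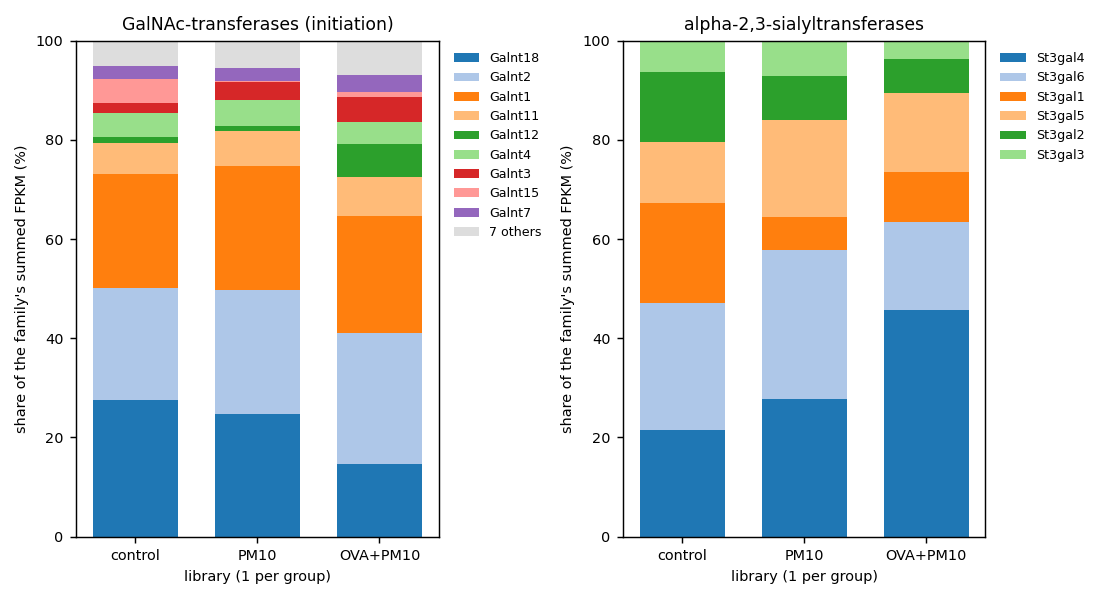
Share of each gene in the summed FPKM of its family, in percent, for the initiating GalNAc-transferases and the alpha-2,3-sialyltransferases, with 1 bar per library. The Galnt12 band widens from 1.32% in the control bar to 6.73% in the OVA+PM10 bar, and the St3gal4 band from 21.5% to 45.6%.

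Core 1 synthesis needs C1galt1, the galactosyltransferase that acts on the first GalNAc, and C1galt1c1 (Cosmc), the chaperone it needs to fold. C1galt1 (chromosome 6, 7844842 to 7875687) had 17.8 FPKM in control lung, 4.39 FPKM in PM10 lung and 17.3 FPKM in OVA+PM10 lung, from about 2245, 347 and 1605 reads. The PM10 library was the low one, with a log2 ratio of -1.80 against control, while OVA+PM10 and control nearly coincided (-0.04). C1galt1c1 had 18.1, 23.1 and 21.2 FPKM and did not share this pattern. The ratio of C1galt1 to C1galt1c1 within a library, which does not depend on scaling, was 0.982, 0.190 and 0.819. C1galt1 has a long transcript (6092 bases, against 1449 for C1galt1c1). With the trend of all genes over length removed, C1galt1 was still called lower in the PM10 library (-1.27). B3gnt6, the core 3 enzyme, stayed below 1 FPKM in every library (0.22, 0.031 and 0.136 FPKM).

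Among the branching enzymes, Gcnt3 was seen almost only in OVA+PM10 lung. Gcnt3 (chromosome 9, 70031496 to 70038088) is the mucin-type enzyme of secretory epithelia that makes core 2 and core 4 branches. It had 0.021 FPKM in control lung, 0.017 FPKM in PM10 lung and 2.70 FPKM in OVA+PM10 lung, or about 2, 1 and 177 reads. The log2 ratio was 1.86 both against control and against PM10, and because the FPKM + 1 scale compresses such low values, the distance in FPKM is far larger than that ratio shows. Gcnt3 passed the floor of 1 FPKM through OVA+PM10 lung only, so a higher value there was fixed by the choice of genes. Gcnt1, the core 2 enzyme of leukocytes and many other cells, had 0.948, 1.52 and 0.692 FPKM. Gcnt2, which makes the I-antigen branch, was the most abundant of the family at 17.8, 16.9 and 9.12 FPKM, lower in the OVA+PM10 library without reaching 2-fold (-0.89 against control). Gcnt3 made up 0.111% of the branching family in control lung and 21.4% in OVA+PM10 lung. Gcnt4 and Gcnt7 stayed below 1 FPKM.

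**Figure D3:**
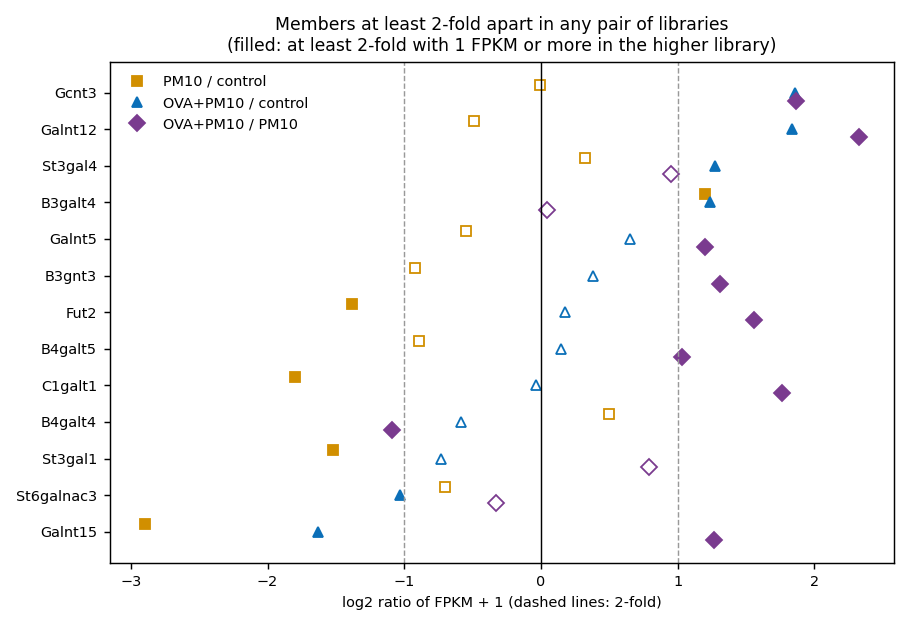
Log2 ratio of FPKM + 1 (horizontal axis) of the 13 members called in any comparison, with 1 marker per comparison, filled where the gene was called and dashed lines at 2-fold. Gcnt3 and Galnt12 lie to the right in both comparisons of the OVA+PM10 library, and Galnt15 lies farthest to the left, at -2.89 for PM10 against control.

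Chain extension alternates GlcNAc, added by B3gnt enzymes, with galactose, added mainly by B4galt enzymes. B3gnt2, the main enzyme of poly-N-acetyllactosamine chains, was the most abundant GlcNAc-transferase of this kind at 18.3 FPKM in control lung, 17.4 FPKM in PM10 lung and 15.8 FPKM in OVA+PM10 lung. B3gnt3, which extends core 1 in mucous and endothelial cells, had 3.14, 1.18 and 4.40 FPKM. Its PM10 value was the low one (log2 ratio -0.92 against control) and the OVA+PM10 library was called higher than PM10 (1.31). B3gnt4 had 0.285, 0.336 and 1.55 FPKM, about 8, 6 and 34 reads, with a log2 ratio of 0.99 against control in OVA+PM10 lung that 1 FPKM added compresses (the FPKM themselves differed 5.45-fold). B3gnt4 passed the floor through OVA+PM10 lung only, which fixed that library as its highest. B3gnt7, an enzyme of keratan sulfate chains, had 4.37, 2.11 and 4.64 FPKM. B3gnt5, B3gnt8 and B3gnt9 had log2 ratios between -0.73 and 0.58.

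Of the 7 B4galt genes, all were kept, and none was called against control in either exposed library. Of all genes, 13.6% were called higher and 13.9% lower in PM10 lung, and 9.95% and 8.68% in OVA+PM10 lung. B4galt4 was the most abundant in every library, at 21.4 FPKM in control lung, 30.7 FPKM in PM10 lung and 13.9 FPKM in OVA+PM10 lung. It was the member called lower in the OVA+PM10 library than in the PM10 library (log2 ratio -1.09, or -0.52 and below 2-fold with libraries scaled to the same sum). B4galt5, which also makes lactosylceramide, had 10.1, 5.00 and 11.3 FPKM, and was called higher in that comparison (1.03, and just under 2-fold with the length trend removed). The pair thus lay in opposite order in the exposed libraries. B4galt1, the main galactosyltransferase of N- and O-glycans, had 14.2, 21.5 and 13.2 FPKM. B4galt2, B4galt3, B4galt6 and B4galt7 had log2 ratios between -0.94 and 0.61.

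B3galt4 (chromosome 17, 33949909 to 33951488), which adds galactose to gangliosides and not to mucins, was called higher in both exposed libraries. It had 2.81 FPKM in control lung, 7.74 FPKM in PM10 lung and 8.0 FPKM in OVA+PM10 lung, from about 92, 159 and 192 reads. The log2 ratios against control were 1.20 and 1.24, and the exposed libraries hardly differed (0.04). Its transcript is short (1580 bases), and with the length trend removed the ratios against control were 0.63 and 0.89, below 2-fold, as were the 0.19 and 0.75 found with libraries scaled to the same sum. B3galt6 had 1.48, 1.92 and 1.66 FPKM, and B3galt1, B3galt2 and B3galt5 stayed below 1 FPKM.

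Promoter sequence from RefSeq on GRCm38.p6, the build also named mm10, was at hand for 37 of the 51 kept genes in windows from 250 bases before to 50 after a transcript start. Of the 13 called members, Fut2, Galnt12, Gcnt3 and St3gal1 were not matched. Of the 9 that were, 5 had a window whose first 200 bases, all before the start, overlapped no annotated exon. The 4 that extend chains are printed below, 5′ to 3′ on the gene's strand, to show what lay upstream of genes that differed between the exposed libraries (B3gnt3, B4galt4 and B4galt5) or from control (B3galt4). The windows are chr8:71701851-71702050 (minus strand), chr16:38742009-38742208 (plus strand), chr2:167349229-167349428 (minus strand) and chr17:33951539-33951738 (minus strand). Capitals mark any of the motifs that were searched.
B3gnt3: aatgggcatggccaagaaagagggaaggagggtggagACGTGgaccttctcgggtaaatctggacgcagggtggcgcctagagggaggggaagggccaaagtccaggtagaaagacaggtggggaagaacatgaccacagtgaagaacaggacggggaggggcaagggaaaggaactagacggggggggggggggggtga
B4galt4: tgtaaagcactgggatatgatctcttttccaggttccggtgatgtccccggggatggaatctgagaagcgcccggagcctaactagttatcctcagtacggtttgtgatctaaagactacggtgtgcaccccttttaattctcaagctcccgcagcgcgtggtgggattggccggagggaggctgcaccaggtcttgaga
B4galt5: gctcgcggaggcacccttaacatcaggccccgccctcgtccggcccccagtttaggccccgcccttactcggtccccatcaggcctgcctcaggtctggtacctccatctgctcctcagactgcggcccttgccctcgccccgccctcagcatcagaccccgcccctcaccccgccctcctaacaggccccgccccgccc
B3galt4: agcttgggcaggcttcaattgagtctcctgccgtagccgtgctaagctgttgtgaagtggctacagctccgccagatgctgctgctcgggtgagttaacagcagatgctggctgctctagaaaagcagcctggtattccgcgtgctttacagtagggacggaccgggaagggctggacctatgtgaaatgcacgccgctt

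The motifs were TTC and GAA with 4 bases between them (STAT6), TGTTTAC (forkhead), ACGTG (XBP1 and CREB3-type factors) and CCGGAT (ETS-type), on both strands and over the whole windows. The letters ACGTG occurred in 21.2% of the kept members' windows (11 of 52) and in 19.6% of all 32851 windows. Of the called members, B3gnt3, Galnt5 and St6galnac3 held it. The STAT6 letters occurred in 1.92% of the members' windows and 6.95% of all, in no called member. The forkhead letters occurred in 1.92% and 3.65%, and the ETS-type letters in 5.77% and 6.04%. A match is a description of letters and not a binding site. B4galt4 and B4galt5, which lay in opposite order, and B3galt4 held none of the 4 in the printed stretch.

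Sialic acid caps were set by 6 alpha-2,3 enzymes, all kept, and 8 alpha-2,6 enzymes, of which 5 were kept. St3gal4 (chromosome 9, 35046576 to 35119268), which caps lactosamine chains and helps to make selectin ligands, had the highest level of any member in OVA+PM10 lung. It stood at 23.5 FPKM in control lung, 29.6 FPKM in PM10 lung and 58.1 FPKM in OVA+PM10 lung, from about 1018, 806 and 1849 reads. The OVA+PM10 library was called higher than control (log2 ratio 1.27) and lay just within 2-fold of PM10 (0.95). With libraries scaled to the same sum the ratio against control was 0.65, below 2-fold. Among all genes tested, 6.04% had a ratio against control as high. Its share of the alpha-2,3 family was 21.5%, 27.8% and 45.6%.

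St3gal1, which caps core 1 and so ends that chain, had 22.1 FPKM in control lung, 7.05 FPKM in PM10 lung and 12.9 FPKM in OVA+PM10 lung. Both exposed libraries were below control, and the PM10 library was called lower (log2 ratio -1.52, or -0.995 and just within 2-fold with the length trend removed). The within-library ratio of St3gal4 to St3gal1 was 1.06 in control lung, 4.20 in PM10 lung and 4.501 in OVA+PM10 lung. That ratio is open to the length trend, since the longest transcripts have 2095 bases for St3gal4 and 5732 for St3gal1. With the trend removed, PM10 against control went from 0.32 to -0.01 for St3gal4, beside the change given above for St3gal1. St3gal6 had 28.0, 32.0 and 22.7 FPKM and was the highest member of all in PM10 lung. St3gal2, a relative of St3gal1, had 15.3, 9.51 and 8.57 FPKM. St3gal5, the GM3 ganglioside synthase, had 13.5, 20.8 and 20.3 FPKM, and St3gal3 6.999, 7.58 and 4.76 FPKM.

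St6galnac1, the enzyme that makes the sialyl-Tn cap in goblet cells of other organs, was listed at 0 in the control and PM10 libraries and at 0.054 FPKM in OVA+PM10 lung, about 2 reads. It was thus near absent at this depth in the library where goblet cell markers were highest. St6galnac2, which acts on core 1, was the most abundant alpha-2,6 enzyme at 17.2, 27.3 and 16.0 FPKM. St6gal1, which caps N-glycans and is high in B cells and hepatocytes, had 10.4, 15.7 and 15.9 FPKM. B and plasma cell markers summed to 147, 236 and 1399 FPKM. In OVA+PM10 lung most of that sum was Jchain (766 FPKM) and Mzb1 (420 FPKM), genes of plasma cells. The B cell markers Ms4a1 (17.8, 14.8 and 24.8 FPKM) and Pax5 (3.77, 13.7 and 3.13 FPKM) did not follow the sum. The part of these cells in the level of St6gal1 was not tested. St6galnac4 had 6.04, 11.7 and 6.18 FPKM, and St6galnac6 8.22, 10.7 and 7.70 FPKM. St6gal2 and St6galnac5 stayed below 1 FPKM.

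St6galnac3 (chromosome 3, 153198266 to 153725174), which forms disialylated chains, was the alpha-2,6 enzyme called lower in OVA+PM10 lung. It had 5.51 FPKM in control lung, 2.99 FPKM in PM10 lung and 2.18 FPKM in OVA+PM10 lung. Both exposed libraries were below control on this scale, and the log2 ratio for OVA+PM10 was -1.03. Its transcript is long (8169 bases), and with the length trend removed that ratio was -0.68, below 2-fold, and the one for PM10 went from -0.71 to 0.11. Endothelial markers summed to 1434, 2005 and 738 FPKM and alveolar type 1 markers to 2602, 3264 and 1147 FPKM, lowest in OVA+PM10 lung. In PM10 against control both lists were split. Of 8 endothelial markers, 2 were called higher and 2 lower (median log2 ratio -0.26), and of 8 alveolar type 1 markers, 1 higher and 2 lower. The part of these cells was not tested. Its upstream stretch (chr3:153725184-153725383, minus strand, GRCm38.p6) is shown because it was the 1 printed that holds the CREB3-type letters within the palindrome CACGTG, in capitals.
St6galnac3: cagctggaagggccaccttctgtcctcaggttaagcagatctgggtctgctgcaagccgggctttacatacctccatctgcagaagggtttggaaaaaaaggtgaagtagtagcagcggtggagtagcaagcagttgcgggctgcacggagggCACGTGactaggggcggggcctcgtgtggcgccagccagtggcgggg

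Of the 9 fucosyltransferase symbols matched, 1 of them a pseudogene, 6 were kept. Fut2, the secretor enzyme that adds alpha-1,2-fucose to mucins (chromosome 7, 45648591 to 45666394), had 1.61 FPKM in control lung and 1.95 FPKM in OVA+PM10 lung, and in PM10 lung its listed value was 0. It was counted as called there, but with a value of 0 that can be a failed estimate no fold is given. Its neighbour and relative Fut1 had 0.425 and 0.693 FPKM and Fut9 0.066 and 0.689 FPKM in the control and OVA+PM10 libraries, and both were listed at 0 in PM10 lung too. The pseudogene Sec1 of the same cluster was not, with 1.89, 2.76 and 2.36 FPKM, and the sources used here do not say how reads shared within the cluster were divided. Fut8, which fucosylates the core of N-glycans, was the most abundant, at 15.004 FPKM in control lung, 21.0 FPKM in PM10 lung and 29.5 FPKM in OVA+PM10 lung, just within 2-fold (0.93). Fut7, the leukocyte enzyme of sialyl Lewis X, had 1.12, 1.36 and 0.38 FPKM, and Fut4, which shares that task, 2.48, 1.43 and 3.02 FPKM. Neutrophil markers, highest in OVA+PM10 lung, summed to 1024, 967 and 3593 FPKM. In OVA+PM10 lung S100a8 and S100a9 held 1958 and 1016 FPKM of that sum. Of 7 markers, 5 were called higher there than in control. Csf3r (4.675, 4.59 and 5.39 FPKM) and Cxcr2 (2.70, 4.31 and 3.08 FPKM) were not. The part of neutrophils in the levels of Fut7 and Fut4 was not tested. Fut10 and Fut11 had log2 ratios between -0.48 and -0.09, and the pseudogene Fut4-ps1 was listed at 0 in every library.

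Other genes of the pathway were set beside the members. Of 10 mucin backbone genes found, 6 reached 1 FPKM in either library and 4 were called higher in the OVA+PM10 library than in control, with Muc15 lower. Muc5ac and Muc5b, the gel-forming airway mucins, had log2 ratios of 5.90 and 4.46, and the membrane mucins Muc4 and Muc1 had 2.37 and 1.42. In PM10 against control, Muc1 was called higher (53.7 FPKM in control, 198 FPKM in PM10 and 146 FPKM in OVA+PM10) and Muc5b and Muc15 lower (log2 ratios -1.14 and -1.50). All 8 goblet cell markers were called higher in the OVA+PM10 library than in control, and they summed to 11.8 FPKM in control lung, 11.2 FPKM in PM10 lung and 6491 FPKM in OVA+PM10 lung. Galnt12, Gcnt3 and St3gal4 were high in the same library, although Gcnt3 passed the floor only through it. Other markers called higher there than in control were 7 of 8 for ciliated cells (median log2 ratio 2.20), 5 of 8 for eosinophils, 5 of 7 for neutrophils and 5 of 9 for macrophages. So were 3 of 8 for club cells, with 1 lower (median 0.71), and 4 of 9 for B and plasma cells. Of 10 submucosal or salivary gland markers, 2 reached 1 FPKM in that pair of libraries, and both were called higher. Smaller counts were higher for T and NK cells (2 of 9), fibroblasts (2 of 8) and alveolar type 2 cells (1 of 8). The part of any of these cells in the levels of the 3 genes was not tested. Among 11 goblet cell regulators and secretory genes, 6 of them also among those markers, 9 were called higher than control. The largest log2 ratios were those of Clca1 (11.70), Tff2 (6.18), Fcgbp (5.94) and Agr2 (4.91), all products of mucous cells. Among the regulators called were Spdef (0.802, 1.09 and 17.7 FPKM in control, PM10 and OVA+PM10) and Creb3l1 (7.96, 3.72 and 32.8 FPKM).

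Nucleotide sugar genes, which supply the donors and carry them into the Golgi, had a median log2 ratio of 0.45 in OVA+PM10 lung against control, with 5 of 25 called higher and 1 lower. Among those higher were Nans, the sialic acid synthase (22.6, 39.5 and 59.5 FPKM), the GDP-fucose synthase Tsta3 (15.4, 45.8 and 44.8 FPKM), the GDP-fucose carrier Slc35c1 (6.36, 11.5 and 16.4 FPKM) and galactokinase Galk1 (14.4, 51.7 and 38.6 FPKM). Papss2, a maker of the sulfate donor, was the lower one (9.92, 6.95 and 4.03 FPKM). In the PM10 library, Galk1, Tsta3 and Slc35b3 were called higher than control and Gfpt2 and Slc35a3 lower. Of the sulfotransferases, 4 reached 1 FPKM in the OVA+PM10 or the control library. Gal3st1 was called higher (4.56, 9.43 and 12.0 FPKM) and Chst2 lower (7.79, 3.67 and 2.98 FPKM) in OVA+PM10 lung than in control. Among other cappers, the alpha-2,8-sialyltransferase St8sia6 had 1.15, 0.345 and 8.68 FPKM, and Ggta1, which makes the alpha-gal cap, 21.1, 16.2 and 9.90 FPKM.

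Other Golgi genes were set beside the members as a comparison. In the PM10 library, medians against control were -0.57 for 12 N-glycan branching genes, -0.35 for 17 glycosaminoglycan chain genes and -0.37 for 21 structural Golgi genes, all below the -0.05 of the glycosyltransferases. In the OVA+PM10 library they were 0.16, -0.12 and -0.02. Structural Golgi genes held 2 higher and 6 lower calls in PM10 lung, among them Trip11 (8.21 FPKM in control and 0.729 FPKM in PM10), and no call in the OVA+PM10 library against control. Among N-glycan and glycosaminoglycan genes, the largest log2 ratios of PM10 against control were those of Mgat5, a branching enzyme (-2.65), Man1a, a Golgi mannosidase (-2.19), and Ndst1, a heparan sulfate enzyme (-3.16). Mgat3, the bisecting enzyme of N-glycans, had 6.53, 3.78 and 19.3 FPKM and was the N-glycan gene called higher in OVA+PM10 lung. The trend over transcript length was not removed from any of these medians. Whether they differ from that of the members was not tested.

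**Figure D4:**
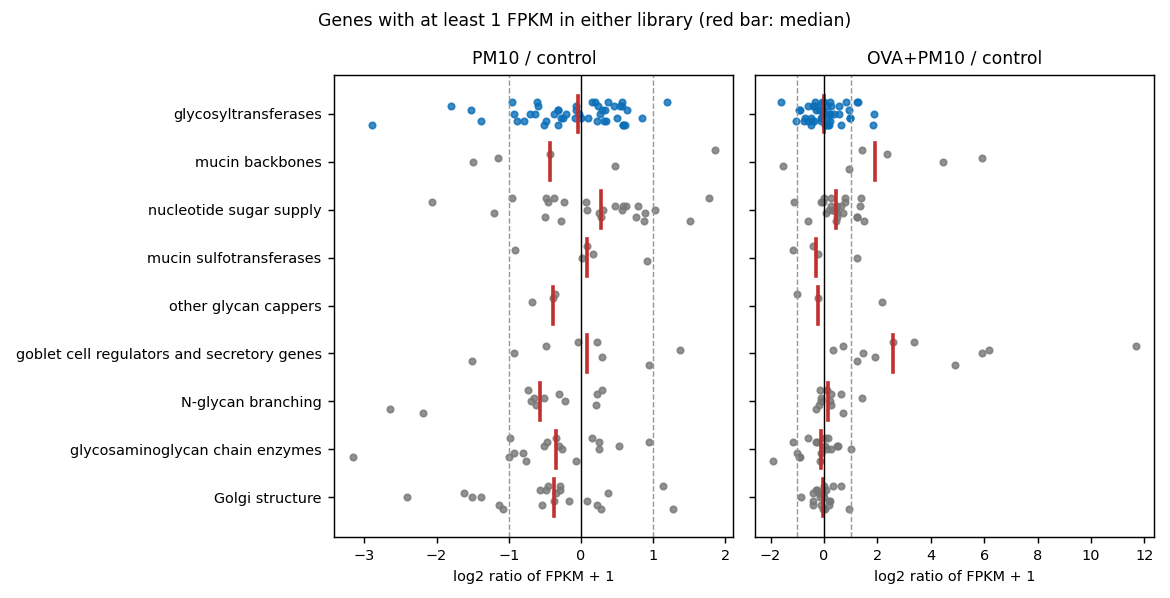
Log2 ratio of FPKM + 1 for each gene with at least 1 FPKM in either library, for PM10 against control and OVA+PM10 against control, by list, with the median as a red bar and dashed lines at 2-fold. The glycosyltransferases lie around 0 in both panels (medians -0.05 and -0.02), whereas mucin backbones and goblet cell genes reach beyond 5 in the right panel.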

How the data were processed

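Gene expression in lung homogenates was measured by RNA sequencing in 3 libraries, grouped by their titles, with 1 library per group. Per the labels, 1.3 µg of total RNA went into each strand-specific library. The authors deposited FPKM for 23183 genes per library, a unit inferred here from the values, since the headers do not name it. The tool TopHat and the build mm10 are named, per the submitters' processing notes. Counting program, annotation and the use of strand and of multiply mapped reads are in none of the sources used here. Values of genes that overlap others (such as Galnt4 with Poc1b, Galnt5 with Ermn and B3gnt4 with Diablo), of Galnt6 with its antisense gene and of near-identical copies are therefore uncertain.

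For each pair of libraries the log2 ratio of FPKM + 1 was computed on the deposited scale (Python 3.11.15, pandas 2.3.3, numpy 2.4.6), and genes with a ratio of 1 or more in size were called where the higher value reached 1 FPKM. No test was possible and no p-value is given. Depth was estimated from genes with a single transcript in GENCODE M21, as the step that best fits FPKM times length (48.3, 77.0 and 65.8). Approximate reads are a gene's FPKM times its longest transcript over that step. They assume the longest transcript, cover no counting interval and leave out St6galnac2, whose symbol is on 2 gene models. Named genes were all members called in any comparison, the most abundant of each family and, where named, genes among the 4 largest ratios of another list. Further genes of those lists (such as Spdef and Creb3l1) were named after their values were seen. So were genes such as Galnt9, Fut1, Fut9, Sec1, St6galnac1, Rn45s and Tgoln2, and single cell type markers such as Dcn, Col1a1 and Pax5. Members and lists were chosen with earlier results of these data known. Alternatives were other pseudocounts, floors, folds and scalings, and subtraction of a running median over 501 genes ordered by transcript length (known for 22110 genes). The calls and scalings were tested on simulated data. A comparison of proteins, foreseen in the plan, was not made.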

Additional observations from a re-analysis of the deposited data

How the results depend on the processing

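Of the 13 members called, none changed sign under any alternative in a comparison in which it was called. Scaling by the median ratio and no floor left every count of calls the same. Scaling to the same sum gave 0 higher and 28 lower in PM10 against control, 2 and 11 in OVA+PM10 against control, and 18 and 0 in OVA+PM10 against PM10, with medians of -1.17, -0.60 and 0.57. All genes then gave 262 and 7392 of 14271, 652 and 3560 of 14525, and 3354 and 341 of 13581. In that order of comparisons, a 1.5-fold threshold gave 5 higher and 12 lower of 48 members, 9 and 8 of 50, and 15 and 8 of 51. Over all genes it gave 3606 and 3490 of 13693, 2853 and 2451 of 13877, and 3078 and 3046 of 13556. A 4-fold threshold gave 0 and 1, 0 and 0, and 1 and 0, with Galnt15 (PM10 against control) and Galnt12 (OVA+PM10 against PM10) the members called. The same threshold called 303 and 525, 207 and 276, and 290 and 111 of the same all-gene totals. Adding 5 FPKM in place of 1 gave 0 and 3, 2 and 0, and 2 and 0, and Galnt12 and St3gal4 were the members then higher than control in OVA+PM10 lung. All genes gave 1267 and 749, 694 and 524, and 476 and 668 with 5 FPKM added. Adding 0.25 FPKM gave 8 higher in OVA+PM10 against control (1709 of all 13877 genes), and 3 lower in OVA+PM10 against PM10 (1535 of all 13556). A floor of 5 FPKM left 3 of 29 higher in OVA+PM10 against PM10 (1013 of all 9597). With the length trend removed there were 3 higher in PM10 against control (1049 of all 13181 genes) and 2 lower in OVA+PM10 against PM10 (928 of all 13034). The members' median of OVA+PM10 against control was then 0.091. B3galt4 was then called in neither comparison with control, and Galnt12, Gcnt3 and St3gal4 were still called higher than control in OVA+PM10 lung. Except where the alternative's own construction shows it (a stricter floor or fold, or a larger pseudocount on low genes), the cause was not tested. No paired analysis was possible because each group had 1 library. Depth limits B3gnt3, B3gnt4, Fut2, Fut7, Galnt5, Galnt12, Galnt15, Galnt16, Gcnt1 and Gcnt3, each with under 50 approximate reads in at least 1 library.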
